A study of Homo sapiens with 6 samples.

Results

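DTXR, a docetaxel-resistant subline of the human prostate carcinoma line DU145, was compared with its parent across the 14977 of 60658 listed genes that reached 1 FPKM (fragments per kilobase of transcript, scaled for library size) in DU145 or in DTXR. The study sequenced stranded mRNA from 6 prostate cancer lines, with 1 library per line: C4-2B and DU145 as parents, TaxR and DTXR as the docetaxel-resistant lines derived from them, and CabR and CTXR as cabazitaxel-resistant lines derived from TaxR and DTXR. TaxR and DTXR were kept under 5 nM docetaxel, CabR and CTXR under 5 nM cabazitaxel, and the parental lines under neither drug. Per the labels all cells were untreated before harvest, and all grew in the same serum-supplemented medium. The labels call every line castration-resistant prostate carcinoma, and they do not say whether DTXR is a clone or a pool.

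Docetaxel is a taxane, a drug that binds β-tubulin, stabilises microtubules and blocks cells in mitosis. Resistance to taxanes is known to arise from efflux of the drug by P-glycoprotein, the product of ABCB1, from changes in tubulin isotypes, and from altered control of cell death. DU145 was isolated from a brain metastasis and grows without androgen, and its biology is studied through growth factor, inflammatory and adhesion pathways.

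The labels were set against marker genes. The prostate-specific antigen gene KLK3 was listed at 0 in DU145 and was at 0.148 FPKM in DTXR. The 6 markers of the C4-2B lineage summed to 1.72 FPKM in DU145 and 2.57 in DTXR, against 4895 in C4-2B. The epithelial markers EPCAM, KRT8 and KRT18 were present in both lines, at 14.8, 105 and 179 FPKM in DU145 and at 24.5, 94.1 and 96.8 in DTXR, while CDH1, which encodes E-cadherin, was at 0.576 and 0.224. PTPRC, CD3E, PECAM1 and CDH5, markers of leukocytes and endothelium, were listed at 0 in both libraries. The 4 leukocyte markers summed to 9.07 FPKM in DU145 and 82.4 in DTXR, all of it CD68, a lysosomal glycoprotein that other cells also make, and the 4 fibroblast markers to 3.09 and 4.42.

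Total FPKM was 803230 in DU145 and 818430 in DTXR, with 14139 and 13860 genes at 1 FPKM or more and 40.7% and 40.2% of the total on mitochondrial genes. The depth is unknown, since no read totals were at hand. With 1 library per line there is no replicate check, and a gene is called higher or lower by size alone: a ratio of (FPKM + 1), DTXR to DU145, of at least 1 on the log2 scale. That scale understates the ratio of genes near 0. In RNA from a whole culture, a change in level per cell and a change in the share of cells that carry a transcript cannot be told apart.

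By this rule 936 genes, or 6.25% of those measured, were higher in DTXR, and 890, or 5.94%, were lower, while 13151 did not pass it. Protein-coding genes made up 682 of the higher genes (5.55% of 12285) and 537 of the lower ones (4.37%). The median log2 ratio was 0.02, with quartiles of -0.32 and 0.34, and across measured genes, which are not replicates, the Pearson correlation of the 2 libraries was 0.924. Larger differences were more often upward: 206 genes were higher and 143 lower by 2 or more on the log2 scale, 67 and 44 by 3 or more, and 24 and 16 by 4 or more. Some calls come from genes that reach 1 FPKM in a single library and so enter through their higher value: 418 of the 838 genes at that level in DTXR alone were called higher, and 461 of the 1117 in DU145 alone were called lower. Among the 13022 genes at 1 FPKM in both, 518 (3.98%) were higher and 429 (3.29%) lower. The filter was crossed by small steps, with the nearest gene inside it at 1.0004 FPKM and the nearest outside at 0.9998.

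**Figure D1:**
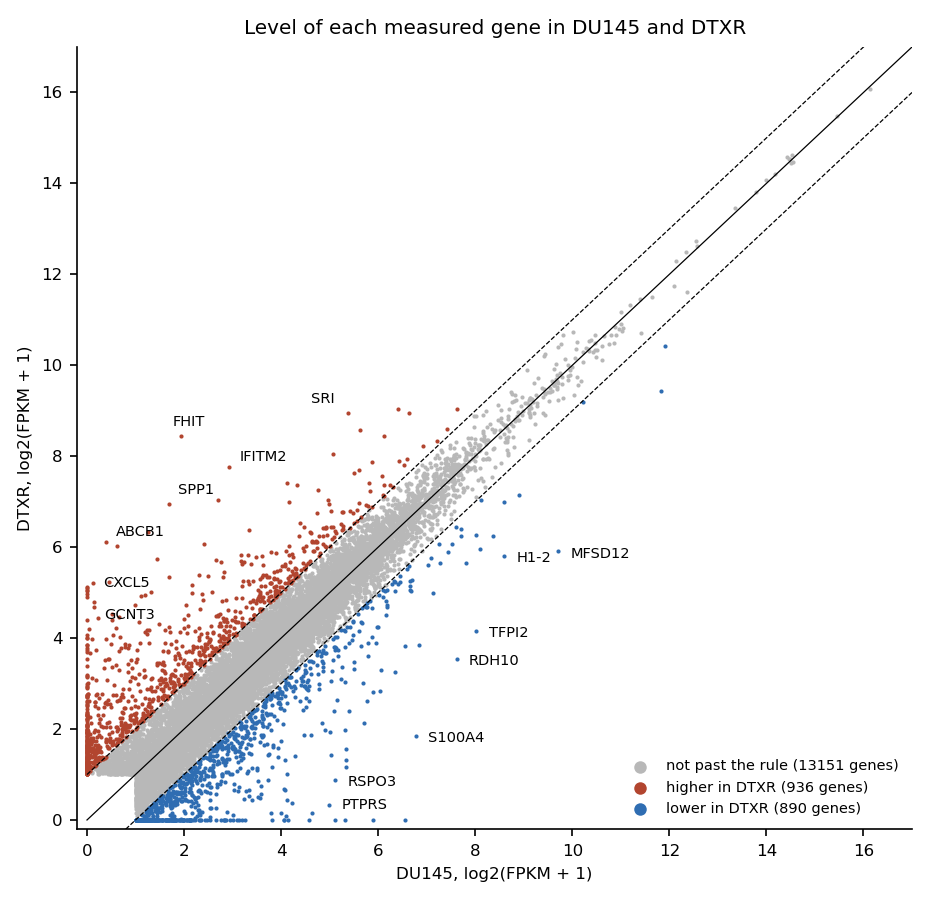
Each point is 1 of the 14977 measured genes, with its log2(FPKM + 1) in DU145 on the x axis and in DTXR on the y axis; the solid line marks equal levels and the dashed lines the size rule of 1 on the log2 scale. The 936 higher genes lie above the upper dashed line and the 890 lower genes under the lower one, and FHIT, SPP1 and IFITM2 stand far above the line while MFSD12, TFPI2 and S100A4 stand far below it.

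ABCB1 was among the genes that differed most. Its level was 0.304 FPKM in DU145, with 68.0 in DTXR and 94.2 in CTXR, a log2 ratio of 5.73 for DTXR, and in the other lineage C4-2B had 0.259, TaxR 526 and CabR 936. ABCB1 was thus near 0 in both parents and expressed in all 4 resistant lines, at a lower level in DTXR than in TaxR. ABCB1 spans chromosome 7, positions 87503633 to 87713323 on the minus strand (GENCODE release 29, GRCh38), and overlaps RUNDC3B on the opposite strand.

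Of 9 measured efflux transporters, ABCB1 included, 2 were higher and 1 lower, against 6.25% and 5.94% of all measured genes. Their median log2 ratio was -0.31. ABCC2, the other higher member and an exporter of conjugated anions, was at 2.66 FPKM in DU145, with 7.61 in DTXR and 1.58 in CTXR. ABCG2, the breast cancer resistance protein, was at 4.75, 0.517 and 0.477, a log2 ratio of -1.92 in DTXR. ABCC1, the first multidrug resistance-associated protein, was at 28.0 FPKM in DU145 and 13.8 in DTXR and ABCC3 at 45.9 and 23.4, both just short of the size rule at -0.97 and -0.94. ABCC10, which can transport docetaxel, was at 11.1 in both lines. Among uptake carriers 2 of 6 measured members were higher and 2 lower, against the same shares. Of the 4 at 1 FPKM in both libraries none was higher and 2 were lower, against 3.98% and 3.29% of all genes at that level. The higher members entered through DTXR alone. SLCO1B3, a hepatic organic anion carrier that takes up taxanes, was at 0.812 FPKM in DU145, with 13.4 in DTXR and 10.3 in CTXR, and SLCO4C1 was at 0.313, 3.14 and 2.06. The lower members were SLC22A18, at 17.4 FPKM in DU145 and 6.59 in DTXR, and SLC22A5, at 9.44 and 4.11.

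Genes beside ABCB1 on 7q21 were higher together. From DMTF1 to SRI, positions 87152361 to 88226993 on chromosome 7, all 9 measured protein-coding genes in a row passed the size rule upward, the longest such run in the genome. SRI, which encodes the calcium-binding protein sorcin, was at 40.8 FPKM in DU145, with 492 in DTXR and 551 in CTXR. DBF4, the activator of the replication kinase CDC7, was at 16.4, 170 and 119, and SLC25A40, a mitochondrial carrier on the opposite strand that overlaps it, was at 18.9, 164 and 156. DMTF1, a transcription factor of the ARF-p53 pathway, was at 57.3 FPKM in DU145 and 233 in DTXR, TMEM243 at 16.8 and 126, CROT, a peroxisomal carnitine acyltransferase, at 4.96 and 31.1, and ADAM22 at 8.17 and 48.3. GRM3, a glutamate receptor upstream of DMTF1, was listed at 0 in DU145 and was at 12.8 in DTXR. Over the list of 14 measured neighbours 10 were higher and none lower, against 6.25% and 5.94% of all measured genes. Of the 13 at 1 FPKM in both libraries 9 were higher, against 3.98%. Not all genes of the region followed: ABCB4, the gene next to ABCB1, was listed at 0 in DU145 and 0.0393 in DTXR, ELAPOR2 at 15.7 and 27.5 did not pass the rule, and STEAP2, STEAP1 and CDK14 had log2 ratios of -0.82, 0.21 and 0.26. The list was chosen with the result for ABCB1 known.

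The remaining genes at the top of the ranking came from many functions. FHIT, a diadenosine triphosphate hydrolase encoded at a common fragile site of chromosome 3 (positions 59749310 to 61251459), had the largest log2 ratio of any protein-coding gene, 6.51. FHIT was at 2.82 FPKM in DU145, with 348 in DTXR and 1.79 in CTXR, so its level in the subline derived from DTXR was near that of DU145. SPP1, which encodes the secreted phosphoprotein osteopontin, had the same pattern, at 2.25, 122 and 0.644 (log2 ratio 5.24). TENM3, a teneurin adhesion receptor, was at 0.0343, 17.4 and 0.0310, and TMPRSS15, the protease enteropeptidase, was listed at 0 in DU145 and was at 32.3 in DTXR and 1.30 in CTXR. In these 4 genes DTXR alone of the DU145 lineage was high.

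Other top genes were high in both resistant lines. CXCL5, a chemokine for neutrophils, was at 0.0864 FPKM in DU145, with 36.3 in DTXR and 28.1 in CTXR. MMP1, the interstitial collagenase, was at 0.367, 36.7 and 95.6. LMO3, a LIM-only transcriptional cofactor, was at 0.168, 20.6 and 89.6. CAPG, an actin-capping protein, was at 0.569, 20.96 and 29.8, and S100A16, a calcium-binding protein, at 1.70, 52.6 and 17.01. ARMCX2 was listed at 0 in DU145 and was at 15.8 in DTXR and 14.8 in CTXR, and the zinc finger gene KRBOX1 at 0, 13.4 and 12.5. GARIN2 was at 2.36e-05, 30.4 and 32.4 and overlaps the pseudogene SF3B4P1 on the same strand, so reads of that pair cannot be told apart by position. TNFRSF6B, a soluble decoy receptor for Fas ligand, was at 1.23e-07, 14.99 and 22.7 and lies within the readthrough gene RTEL1-TNFRSF6B.

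A further set was highest in DTXR and intermediate in CTXR. GCNT3, a mucin-type glycosyltransferase, was at 0.106, 26.8 and 5.12 FPKM in DU145, DTXR and CTXR. PTGER4, the prostaglandin E2 receptor EP4, was at 0.430, 20.2 and 2.39, and ROBO1, a receptor for Slit guidance proteins, at 0.0717, 14.9 and 2.54. In all, 34 genes lay under 0.5 FPKM in DU145 and at 10 or more in DTXR, 20 of them protein-coding, and 19 went the other way, 8 of them protein-coding.

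The lowest genes included secreted proteins, receptors and enzymes that DU145 expressed well. S100A4, a calcium-binding protein linked to cell motility on chromosome 1 (positions 153543613 to 153550136), was at 109 FPKM in DU145, with 2.61 in DTXR and 26.8 in CTXR, a log2 ratio of -4.93. TFPI2, an inhibitor of serine proteases in the matrix, was at 258, 16.9 and 13.4, and RSPO3, a secreted amplifier of WNT signalling, at 33.6, 0.835 and 1.40. CYP24A1, which degrades active vitamin D, was at 31.8, 1.71 and 1.21, and TXNIP, an inhibitor of thioredoxin, at 15.7, 0.599 and 1.06. BCHE, butyrylcholinesterase, was at 64.4, 6.16 and 0.407. These 5 genes after S100A4 were low in CTXR as well.

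In 4 others CTXR lay above DU145. PTPRS, a receptor tyrosine phosphatase, was at 30.8 FPKM in DU145, with 0.261 in DTXR and 42.6 in CTXR (log2 ratio -4.66 for DTXR). RDH10, a retinol dehydrogenase, was at 195, 10.7 and 616; it overlaps the abundant ribosomal protein gene RPL7 on the opposite strand, and its values depend on how the authors' counting used strand, which no source at hand states. MISP, a protein that positions the mitotic spindle, was at 16.2, 0.0562 and 21.3, and MYEOV at 39.7, 1.93 and 54.1. In a further set CTXR lay between the other lines. MFSD12, a cysteine importer of lysosomes, was at 838, 59.0 and 257 and overlaps HMG20B, itself at 328 in DU145 and 74.4 in DTXR. CSGALNACT1, which starts chondroitin sulfate chains, was at 39.4, 1.26 and 23.2, SEMA6B at 16.5, 0.348 and 10.4, and TNNC1, a troponin, at 39.6, 1.48 and 20.1. CFAP299 was at 15.6 FPKM in DU145 and listed at 0 in both resistant lines.

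**Figure D2:**
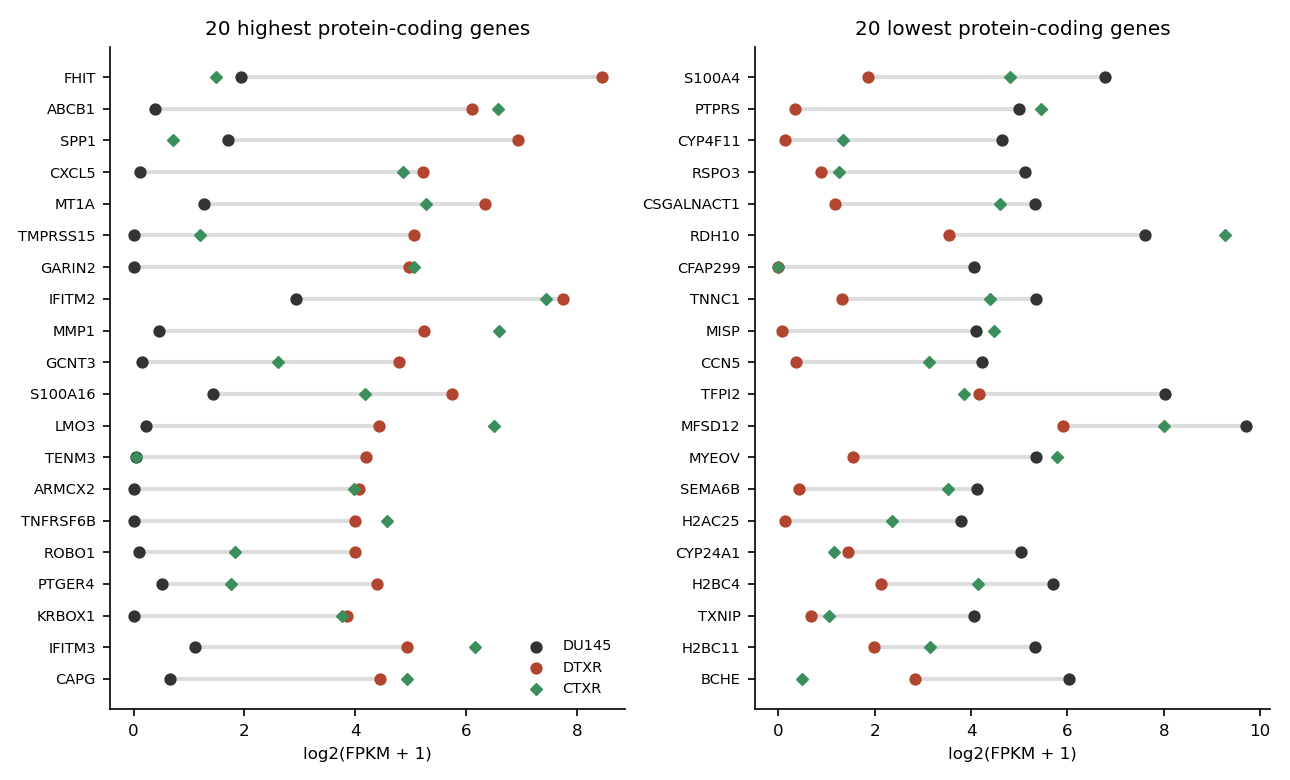
The 20 protein-coding genes with the highest (left) and lowest (right) ratio of DTXR to DU145, with log2(FPKM + 1) on the x axis in DU145 (dark circles), DTXR (red circles) and CTXR (green diamonds), 1 library each. FHIT, SPP1 and TENM3 are high in DTXR alone, whereas ABCB1, MMP1 and LMO3 are higher still in CTXR, and PTPRS, RDH10, MISP and MYEOV are low in DTXR alone.

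Tubulins and the mitotic machinery, the target of docetaxel and the process it blocks, had few members past the rule, as did genes at large. Of 16 measured tubulins, all at 1 FPKM in both libraries, 15 did not pass the rule and 1 was lower. Among all genes at that level 3.98% were higher and 3.29% lower. TUBB3, the β-tubulin isotype most often studied in taxane resistance, was at 41.1 FPKM in DU145 and 51.8 in DTXR. The main isotype TUBB was at 449 and 453, and TUBB6 at 103 and 90.2. The lower one was TUBB4A, at 7.08, 2.83 and 10.8 in DU145, DTXR and CTXR. Among 26 microtubule-associated proteins and stathmins 1 was higher and 3 were lower, against 6.25% and 5.94% of all measured genes. The higher one was the microtubule-destabilising STMN3 at 1.28 FPKM in DU145 and 7.93 in DTXR. The lower ones were KIFC3, a minus-end motor, at 86.7 and 36.9, DCLK1 at 4.17 and 0.697, and MAP7 at 5.62 and 2.14. None of 28 mitotic spindle and checkpoint genes, all at 1 FPKM in both libraries, passed the rule, with log2 ratios from -0.79 (TOP2A) to 0.42 (NUF2). A list of this size would hold few called members at shares of 3.98% and 3.29%. The proliferation marker MKI67 was at 40.8 FPKM in DU145 and 38.6 in DTXR, and the mitotic kinase gene AURKA at 54.0 and 47.0. Of 32 DNA replication genes 2 were higher, against 6.25% of all measured genes. They were TYMS, thymidylate synthase, at 67.7 and 141, and RFC2, a clamp loader subunit, at 25.8 and 61.9. FANCI, of the Fanconi anemia repair pathway, was the only one of 36 homologous recombination and PARP genes past the rule, at 24.5 and 68.7. CDKN1C, which encodes the inhibitor p57, was the only one of 26 cell cycle inhibitors and G1 cyclins past it, at 7.67 and 1.42. The members of these last 2 lists were all at 1 FPKM in both libraries, and their counts lay near the 3.98% higher and 3.29% lower there.

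Histone genes were lower as a group although replication genes were not. Replication-dependent histones are made in S phase from clustered genes whose mRNAs end in a stem-loop in place of a poly(A) tail, so libraries made from poly(A) RNA see only part of them; the labels do not say how mRNA was selected. Of 32 measured histone genes 21 were lower and 1 was higher, with a median log2 ratio of -1.29, against 5.94% lower among all measured genes. Among the 21 at 1 FPKM in both libraries 14 were lower, against 3.29%. All 5 families took part: 3 of 3 linker H1 genes were lower, 6 of 9 H2A, 7 of 8 H2B, 2 of 3 H3 and 3 of 9 H4 genes. H1-2 was at 384 FPKM in DU145, with 55.0 in DTXR and 130 in CTXR. H2BC4 was at 50.9, 3.36 and 16.7, H2AC6 at 92.9, 13.1 and 24.2, and H2BC11 at 38.9, 2.93 and 7.88. In these 4 genes CTXR lay between the other 2 lines. H4C1 was listed at 0 in DU145 and CTXR and was at 5.53 in DTXR. Summed over members, H2B stood at 324 FPKM in DU145 and 73.7 in DTXR, H2A at 127 and 25.5, and H1 at 663 and 187. Histone paralogs are near-identical, so the split of reads within a family is uncertain, while these sums are less exposed to it.

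The promoters of H2A and H2B genes are known for an octamer, ATTTGCAT, bound by OCT1. In RefSeq's promoter table (GRCh38.p14), searched on both strands over 250 bases before each start, this octamer was in 13 of 28 measured histone promoters with an entry and in 10 of the 20 lower ones, against 1.66% of all 27305 promoters and 1.22% of those of measured protein-coding genes. A match describes the letters and is not a bound site. The stretches of 3 strongly lower genes follow with the octamer in capitals, H2BC4 at chr6:26124022-26124069 on the minus strand, H2BC11 at chr6:27132815-27132862 on the minus strand, and H2AC6 at chr6:26124022-26124069 on the plus strand. H2BC4 and H2AC6 are read outward from the same stretch, so their octamer is 1 match seen from both sides, and H2AC6 shows its reverse complement.
H2BC4: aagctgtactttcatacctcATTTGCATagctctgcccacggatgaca
H2BC11: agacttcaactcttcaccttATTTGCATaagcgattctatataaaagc
H2AC6: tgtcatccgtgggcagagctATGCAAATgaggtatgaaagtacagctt

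A subset of interferon-stimulated genes was higher. Interferons act through factors such as STAT2 and IRF9, which bind a response element in target promoters and switch on antiviral proteins and antigen presentation. Of 27 measured members of this list 11 were higher and none lower, with a median log2 ratio of 0.72, against 6.25% higher among all measured genes; among the 20 at 1 FPKM in both libraries 6 were higher, against 3.98%. Of the factors themselves, IRF9 was at 2.99 FPKM in DU145, with 6.98 in DTXR and 15.05 in CTXR, while STAT2 was at 20.7 in DU145 and 22.8 in DTXR. IFITM2, which restricts entry of enveloped viruses, was at 6.61, 215 and 173, and its close paralog IFITM3 at 1.15, 29.5 and 70.4. Reads of that pair can be exchanged between them, and their sum was 7.76 FPKM in DU145, with 245 in DTXR and 244 in CTXR, so the split differed between the resistant lines while the sum hardly did. IFITM1, the gene next to them, was at 1.95 in DU145 and 2.48 in DTXR.

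MX1, a dynamin-like antiviral GTPase, was at 0.422 FPKM in DU145, with 9.30 in DTXR and 0.231 in CTXR. SP100, a nuclear body protein, was at 0.789, 12.7 and 11.9, IFI35 at 7.42, 28.7 and 34.1, and ISG15, a ubiquitin-like modifier, at 7.35, 16.1 and 56.4. OAS3, which makes the activator of RNase L, was at 0.822, 6.35 and 8.14, LGALS3BP at 1.72, 10.0 and 11.2, and IFIH1, the RNA sensor MDA5, at 0.449, 2.34 and 2.30. Many classical members stayed low: OAS1, RSAD2, CMPK2 and XAF1 were listed at 0 in both lines, IFIT1 was at 0.835 and 0.357, and IFI6 at 6.43 and 3.59. The higher genes were therefore a part of the list, not its whole.

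Genes of MHC class I antigen presentation lay above the parental level, with log2 ratios above 0 in all 21 measured members, the lowest at 0.145, and a median of 0.52. The rule was passed upward by 6 of the 21, against 6.25% of all measured genes, and by 3 of the 17 at 1 FPKM in both libraries, against 3.98%. PSMB8, ERAP2 and TAPBPL entered through DTXR alone. PSMB8 and PSMB9, catalytic subunits of the immunoproteasome, were at 0.997 and 2.68 FPKM in DU145, 25.4 and 11.7 in DTXR, and 25.9 and 25.3 in CTXR. ERAP2, which trims peptides in the endoplasmic reticulum, was at 0.640, 5.83 and 2.94, PSME1, a proteasome activator, at 13.5, 38.9 and 46.0, and TAPBP, which encodes tapasin, at 29.4, 63.6 and 48.6. The class I heavy chains moved less, HLA-B from 169 to 236 and HLA-C from 128 to 183, and the light chain gene B2M from 454 to 647. With both libraries scaled to the same upper quartile these log2 ratios drop by 0.06 and keep their direction. PTPRC and CD3E were at 0 in both libraries.

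The core of the interferon-stimulated response element, read as GAAA, any 2 bases and GAAA, was in 12 of 23 promoters of measured interferon-stimulated genes and in 5 of the 10 higher ones, against 3.07% of all promoters and 2.14% of those of measured protein-coding genes. It was in 7 of 17 promoters of class I genes and in 1 of the 6 higher ones. The stretches of 4 higher genes follow, with the element in capitals: IFITM3 at chr11:320866-320915 on the minus strand, LGALS3BP at chr17:78979952-78980001 on the minus strand, OAS3 at chr12:112938442-112938473 on the plus strand and TAPBP at chr6:33314079-33314112 on the minus strand (RefSeq, GRCh38.p14).
IFITM3: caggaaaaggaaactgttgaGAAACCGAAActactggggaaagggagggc
LGALS3BP: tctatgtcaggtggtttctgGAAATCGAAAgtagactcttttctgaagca
OAS3: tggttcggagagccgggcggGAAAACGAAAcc
TAPBP: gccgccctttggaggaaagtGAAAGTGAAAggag
Of the 12 interferon-stimulated genes with the element 7 did not pass the rule, IFI6 and IFI27 among them.

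Inflammatory mediators went both ways. Of 14 measured chemokines and interleukins 4 were higher and 5 lower, and of the 12 at 1 FPKM in both libraries 3 and 4 were, against 3.98% and 3.29% of all genes at that level. Against CXCL5, the related neutrophil chemokine CXCL8 was at 10.3 FPKM in DU145, with 1.15 in DTXR and 5.69 in CTXR, CXCL1 at 5.07, 1.24 and 1.76, and CXCL6 at 1.96, 0.331 and 2.37, although these genes share a cluster on chromosome 4. IL11, a cytokine of the interleukin-6 family, was at 14.3, 1.98 and 1.62, and CCL28, a mucosal chemokine, at 2.78, 16.7 and 5.69. Of 22 NF-kB pathway genes and targets, all at 1 FPKM in both libraries, 2 were higher and 1 lower, against the same shares of 3.98% and 3.29%. ICAM1, a ligand of leukocyte integrins, was at 1.48 FPKM in DU145, with 31.5 in DTXR and 13.02 in CTXR, TNFAIP3, the feedback inhibitor A20, at 1.48, 4.28 and 1.77, and IER3, an early response gene, at 275, 61.3 and 24.6.

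Genes of cell death differed in few members. Of 19 measured death receptors, decoys and caspases 4 were higher and 1 lower, but 3 of the 4, TNFRSF6B, CASP4 and CASP10, entered through DTXR alone. Among the 16 at 1 FPKM in both libraries 1 was higher and 1 lower, close to the 3.98% and 3.29% of all genes at that level. CASP4, an inflammatory caspase that senses bacterial lipid, was at 0.515 FPKM in DU145, with 17.7 in DTXR and 8.13 in CTXR. CASP10, an initiator caspase, was at 0.118, 2.93 and 3.66. TNFRSF10D, a decoy receptor for the death ligand TRAIL, was at 19.99, 5.14 and 9.81. None of 19 BCL2 family members, 18 of them at 1 FPKM in both libraries, passed the rule. A list of this size would hold few called members at the shares of 3.98% and 3.29%. BCL2L1, which encodes BCL-XL, was at 57.3 FPKM in DU145 and 47.1 in DTXR, MCL1 at 202 and 256, and BAX at 48.8 and 36.2.

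Cholesterol synthesis genes were higher at several steps. Of 24 measured members, all at 1 FPKM in both libraries, 7 were higher and none lower, with a median log2 ratio of 0.68, against 3.98% higher among genes at that level in both. HMGCS1, which makes the HMG-CoA that feeds the pathway, was at 30.1 FPKM in DU145, with 130 in DTXR and 36.8 in CTXR. MSMO1, a sterol methyl oxidase, was at 12.9, 58.1 and 28.5. MSMO1 and HMGCS1, the members with the largest ratios, lie in stretches of chromosomes 4 and 5 whose neighbouring genes were also higher, described below. The part of position in their levels was not tested. FDFT1, squalene synthase, was at 33.9, 78.8 and 99.0, and SC5D, MVD and ACAT2 also passed the rule. The regulator SREBF2 was at 62.0 FPKM in DU145 and 61.2 in DTXR. Of the fatty acid list, all at 1 FPKM in both libraries, 2 of 22 were higher and 1 lower, against 3.98% and 3.29% of all genes at that level. The higher ones were the elongase ELOVL6 at 12.1 and 39.8 and LPIN1 at 14.3 and 30.2, and the desaturase-like FADS3 was lower at 38.6 and 13.04. The sterol regulatory element TCACNCCAC was in 1 of 18 cholesterol gene promoters with an entry, that of SREBF2, and in 0.88% of all promoters.

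Proteases that act on the matrix and in lysosomes were among the higher genes. Of 24 measured matrix proteases and inhibitors 9 were higher, against 6.25% of all measured genes, and 2 lower, against 5.94%. Of the 17 at 1 FPKM in both libraries 6 were higher, against 3.98%, and 1 lower, against 3.29%. MMP14, the membrane-bound collagenase, was at 4.27 FPKM in DU145, with 27.8 in DTXR and 23.9 in CTXR. The cathepsin genes CTSL, CTSB and CTSD were at 68.4, 55.2 and 169 in DU145 and at 347, 168 and 387 in DTXR. PLAU, urokinase, was at 15.9, 48.4 and 72.9. TFPI2 was the lowest member and its relative TFPI was higher, at 54.4 and 119. CD68, a lysosomal membrane protein, was at 9.07 FPKM in DU145, with 82.4 in DTXR and 25.8 in CTXR.

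Matrix components and adhesion genes exchanged members. Of 32 measured matrix genes 8 were higher and 4 lower, against 6.25% and 5.94% of all measured genes, and of the 24 at 1 FPKM in both libraries 5 and 2 were, against 3.98% and 3.29%. LAMA3, a chain of laminin-332, was at 3.24 FPKM in DU145 and 18.1 in DTXR, and COL4A5, a basement membrane collagen, at 0.267 and 9.08. HSPG2, which encodes perlecan, was at 7.19 and 0.585, NID2 at 9.27 and 2.42, and LAMB2 at 135 and 53.1. ITGB5, the β-chain of a vitronectin receptor, was at 23.8 and 68.6, and ITGB4, a hemidesmosome integrin that binds laminin-332, at 2.77 and 0.483. Among 8 keratins KRT7 was at 98.3 FPKM in DU145, with 490 in DTXR and 30.1 in CTXR and KRT19 at 60.8, 13.9 and 138, so these simple-epithelial keratins moved in opposite directions in both sublines. Of 26 junction genes 4 were higher and 2 lower, against 6.25% and 5.94% of all measured genes. Of the 23 at 1 FPKM in both libraries 4 and 1 were, against 3.98% and 3.29%. CLDN1 and CLDN7, tight junction claudins, were at 31.8 and 3.08 in DU145 and 111 and 25.6 in DTXR, and the splicing factor ESRP1, an epithelial regulator, at 1.81 and 10.0. JUP, which encodes plakoglobin, was at 80.6, 8.58 and 54.6 in DU145, DTXR and CTXR. Of 17 mesenchymal state genes 3 were higher and 2 lower, and of the 14 at 1 FPKM in both libraries 1 and 2 were, against the same shares. NT5E, the ectonucleotidase CD73, was at 8.39, 50.2 and 40.3, SNAI2 at 0.0351, 2.39 and 0.0258, and the related repressor SNAI1 at 6.39, 1.53 and 3.72. Epithelial and mesenchymal lists thus each had members on both sides.

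**Figure D3:**
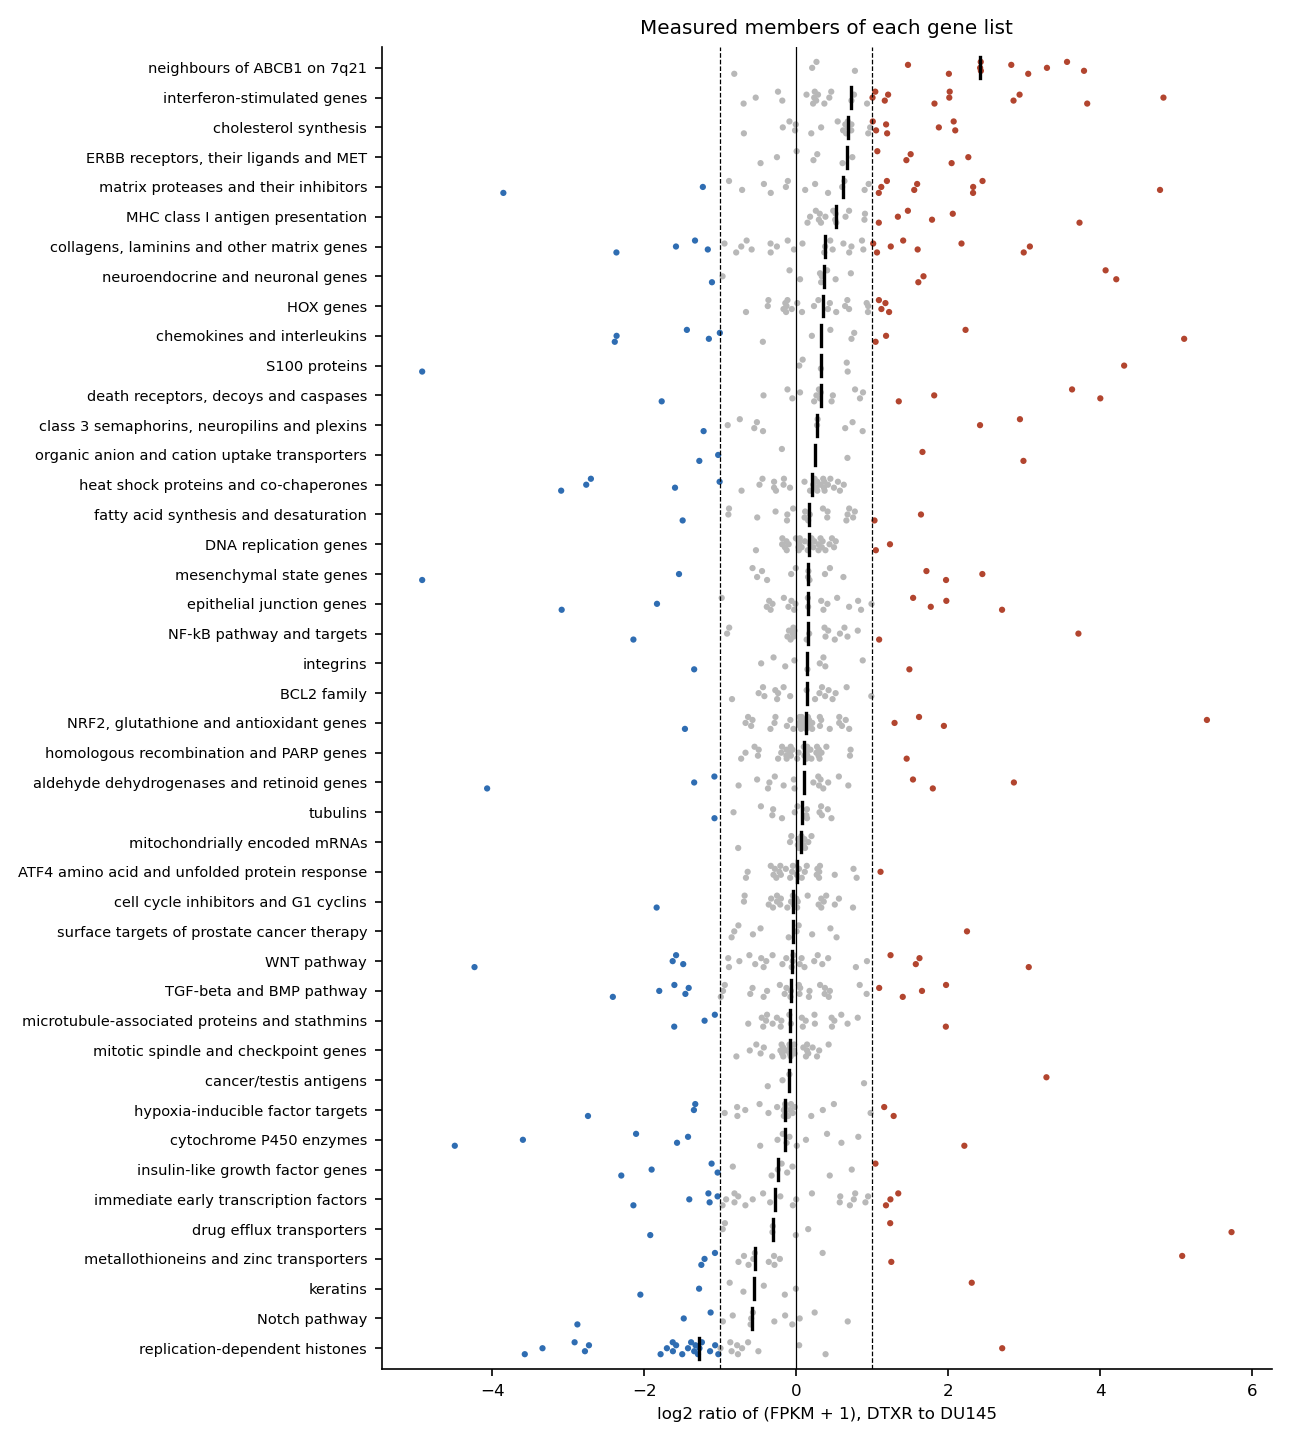
Measured members of the gene lists, with the log2 ratio of (FPKM + 1), DTXR to DU145, on the x axis; red points are higher and blue points lower by the size rule, grey points did not pass it, black bars are list medians and dashed lines the rule. The histones have the lowest median, -1.29, the 7q21 neighbours the highest, 2.42, and the mitotic and BCL2 lists hold no member past the rule.

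In the list of ERBB receptors, their ligands and MET, 4 ligand genes and MET were higher and no ERBB receptor passed the rule. The 5 higher genes were among 12 measured members and among 11 at 1 FPKM in both libraries, against 3.98% of all genes at that level, and none was lower. MET, the receptor for hepatocyte growth factor, was at 9.34 FPKM in DU145, with 48.6 in DTXR and 15.4 in CTXR. The EGF receptor ligand genes EREG and AREG were at 8.32 and 10.9 in DU145, 37.4 and 31.4 in DTXR, and 74.95 and 96.5 in CTXR, and NRG4, a ligand of ERBB4, was at 5.82, 18.3 and 9.69. In the insulin-like growth factor list 4 of 13 were lower and 1 higher, against 5.94% and 6.25% of all measured genes, and these 5 were among the 12 at 1 FPKM in both libraries. The binding protein genes IGFBP3 and IGFBP4 were at 26.4 and 12.5 FPKM in DU145 and at 6.32 and 1.73 in DTXR, the insulin receptor gene INSR was at 9.52 and 4.13, and the adaptor IRS1 was at 2.41 and 6.02.

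WNT, TGF-beta and Notch components differed gene by gene. Of 31 measured WNT genes 4 were higher and 4 lower, against 6.25% and 5.94% of all measured genes. Of the 23 at 1 FPKM in both libraries 2 and 2 were, against 3.98% and 3.29% of all genes at that level. The ligand gene WNT7B was at 0.587 FPKM in DU145, with 12.2 in DTXR and 30.6 in CTXR and the R-spondin receptor gene LGR4 at 3.27, 12.1 and 69.4, while RSPO3 was among the lowest genes, and the secreted inhibitor DKK1 was at 383, 127 and 140. Of 33 TGF-beta and BMP genes 4 were higher and 5 lower, and of the 27 at 1 FPKM in both libraries 3 and 4 were, against the same shares. The 2 receptor-activated SMADs of the TGF-beta branch moved apart, SMAD3 at 17.02, 55.6 and 23.2 and SMAD2 at 100, 32.3 and 130, and the ligand gene BMP7 was at 7.79, 0.648 and 10.1. Of 14 Notch genes 3 were lower, against 5.94% of all measured genes, and none higher, and of the 11 at 1 FPKM in both libraries 2 were lower, against 3.29%: the receptor gene NOTCH3 at 18.5, 1.65 and 9.19, the feedback regulator NRARP at 11.2, 3.38 and 1.32, and the target HEY2 at 1.38, 0.0868 and 0.246. SEMA3A, a secreted guidance factor, and its receptor NRP1 were at 1.29 and 2.29 FPKM in DU145 and both at 16.6 in DTXR.

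Enzymes of lipid, vitamin and retinoid metabolism included some of the lowest genes. Of 16 measured cytochrome P450 genes 5 were lower, against 5.94% of all measured genes, and 1 higher. Of the 12 at 1 FPKM in both libraries 2 were lower, against 3.29%, and the other 3 lower genes entered through DU145 alone. CYP4F11, a fatty acid hydroxylase, was at 23.9 FPKM in DU145, with 0.105 in DTXR and 1.54 in CTXR, and its neighbours and paralogs CYP4F3 and CYP4F12 were at 3.32 and 1.69 in DU145 and listed at 0 in DTXR. Among aldehyde dehydrogenases and retinoid genes 3 of 22 were higher and 3 lower, against 6.25% and 5.94% of all measured genes. Of the 20 at 1 FPKM in both libraries 2 and 3 were, against 3.98% and 3.29%. Retinol is oxidised to retinal by RDH10, reduced back by DHRS3, and retinal is oxidised to retinoic acid by ALDH1A3, which CYP26B1 degrades. DHRS3 was at 1.36, 16.2 and 4.20, ALDH1A3 at 5.66, 22.1 and 25.8, and CYP26B1 at 28.0, 8.74 and 14.3.

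Stress genes differed in single branches. None of 32 heat shock and co-chaperone genes was higher and 5 were lower, against 5.94% of all measured genes, while the list's median was 0.20. Of the 29 at 1 FPKM in both libraries 3 were lower, against 3.29%. The stress-inducible HSPA1A and HSPA1B, near-identical copies, summed to 39.8 FPKM in DU145, with 5.76 in DTXR and 12.9 in CTXR, HSPA6 was at 8.41, 0.383 and 1.31, DNAJB1 at 55.7, 27.1 and 70.4, and HSPB8 was at 7.55 in DU145 and listed at 0 in both sublines. The heat shock element, read as GAA, any 2 bases, TTC, any 2 bases and GAA, was in the promoter of 1 of these 5, HSPA6 (chr1:161524446-161524498, plus strand, GRCh38.p14, element in capitals as its reverse complement), and in 0.44% of all promoters.
HSPA6: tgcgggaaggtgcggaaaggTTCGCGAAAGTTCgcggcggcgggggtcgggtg
HSPA6 has a near-identical copy in its region, so its reads may be shared. Of 26 hypoxia-inducible factor targets 2 were higher and 3 lower, against 6.25% and 5.94% of all measured genes. The lower ones included ADM, the vasodilator adrenomedullin, at 65.3 FPKM in DU145, with 8.90 in DTXR and 22.8 in CTXR. Of 27 ATF4 and unfolded protein response genes, all at 1 FPKM in both libraries, only VLDLR passed the rule, at 5.35 and 12.7. Among all genes at that level 3.98% were higher and 3.29% lower. Of 40 NRF2, glutathione and antioxidant genes 4 were higher and 1 lower, and of the 37 at 1 FPKM in both libraries 2 and 1 were, near the 3.98% and 3.29% of all genes at that level. GPX1, the main cytosolic glutathione peroxidase, which the annotation lists as a polymorphic pseudogene, was at 0.543, 64.3 and 71.9, and GSTM1 and GSTM2, near-identical glutathione transferases, were at 3.66 and 0.666 in DU145 and 16.9 and 4.10 in DTXR. MT1A was at 1.40, 80.1 and 37.7, but the metallothioneins summed to 9026 FPKM in DU145 and 6762 in DTXR, so MT1A was a small part of the family. Reads of metallothionein paralogs can be split in more than 1 way.

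Along the chromosomes, differences gathered in blocks. In 492 windows of up to 25 neighbouring measured protein-coding genes, a window size chosen after seeing the data, the median log2 ratio lay between -0.36 and 0.38 for the middle 90% of windows, reached 0.5 in 14 and was at or below -0.5 in 13. The distal long arm of chromosome 4 held the highest: the windows GLRB to AADAT, GALNT7 to CENPU and ACSL1 to FRG1, positions 157076057 to 189963204, had medians of 0.97, 1.19 and 1.15, with 22 of 25, 24 of 25 and 13 of 13 genes above 0. In CTXR the same windows stood at 0.09, 0.25 and 0.05 against DU145. Within this block ANKRD37, UFSP2, PDLIM3, TLR3 and FAM149A formed a run of 5 called genes. On chromosome 5, TENT4A to SNX18 (positions 6713007 to 54546585) had window medians of 0.78, 0.67 and 0.55, against -0.11, -0.07 and 0.28 in CTXR. On chromosome 7, 4 windows in a row from TNS3 to CROT, positions 47275154 to 87399795, had medians of 0.60 to 0.72, against -0.31, 0.44, 0.51 and 0.69 in CTXR. The last of them holds DMTF1, TMEM243 and CROT, the first 3 genes of the run around ABCB1. The next window, ABCB1 to TFPI2, had a median of -0.33 although it holds the other 6 genes of the run, and GPC2 to PMPCB, positions 100169606 to 103329511, had -0.62 and -0.64.

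The first part of the short arm of chromosome 3 was lower: 7 windows had medians between -0.50 and -0.77. The lowest ran from TRAIP to RBM15B (positions 49828599 to 51397908), with 23 of 25 genes below 0. CTXR was lower there too, at -0.37 in that window. The last of these windows ends at position 57598220. FHIT lies beyond it, within the next window, DENND6A to ARL6IP5, which had a median of 0.055. The window BTN3A3 to ZNF165 on chromosome 6, which holds a histone cluster, had a median of -0.77. Histone genes also formed a run of 5 lower neighbours on chromosome 1 (positions 149842188 to 149887364) and, with 1 unnamed gene, another on chromosome 6 (positions 26114873 to 26199293), and protocadherin genes from PCDHAC1 to PCDHB6 a run of 5 higher ones on chromosome 5. PCDHAC1 and PCDHAC2 overlap each other and other PCDHA genes on the same strand, so their reads cannot be told apart by position. Levels in this run were low in part, with PCDHAC2 at 0.120 FPKM in DU145 and 1.29 in DTXR and PCDHB6 at 0.0573 and 1.86. Whole-chromosome medians ran from -0.21 on chromosome 20 to 0.26 on chromosome 15, and 10.0% of genes on chromosome 19 were lower against 1.6% higher.

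The GC content of a gene's transcripts moved with these ratios. Across the 14895 genes with a GC value, which are not replicates, Spearman's rho was -0.152, and the median log2 ratio went from 0.10 in the class of lowest GC to -0.15 in the class of highest. Centring the ratio within GC classes, an alternative chosen after seeing the data, gave 946 higher and 833 lower genes, 13 windows at or above 0.5 and 9 at or below -0.5. The median of chromosome 19 went from -0.10 to -0.01, that of chromosome 20 from -0.21 to -0.18, and the chromosome 4 windows stayed at 0.91, 1.13 and 1.09. The part of GC content in the remaining blocks was not tested further.

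**Figure D4:**
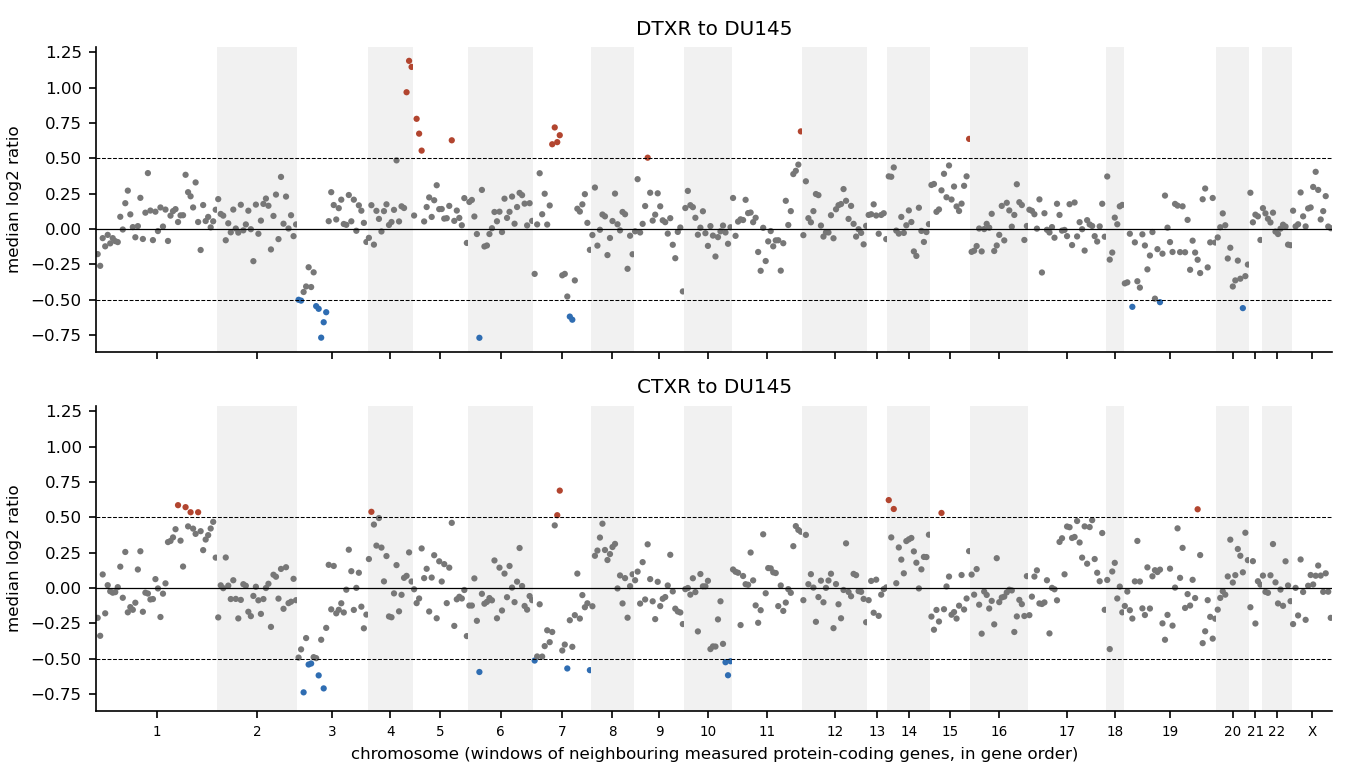
Median log2 ratio of windows of up to 25 neighbouring measured protein-coding genes in gene order, for DTXR (top) and CTXR (bottom) against DU145, with chromosomes as shaded bands; red and blue points reach 0.5 in size, and the dashed lines mark that level. The raised windows at the end of chromosome 4 reach 1.19 in DTXR and 0.25 in CTXR, while the windows at the start of chromosome 3 are lower in both. Both panels share the DU145 library.

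Most genes called in DTXR were not called in the same direction in TaxR, the docetaxel-resistant line of the other parent. The shared part of each list was nonetheless larger than the share called among all genes measured in both lineages. The part called in opposite directions was larger than that share too. Of the genes higher in DTXR, more were lower in TaxR than higher. Of 12660 genes measured in both lineages 525 (4.15%) were higher in DTXR and 261 (2.06%) in TaxR, and 33 were higher in both, 6.3% of the DTXR list and 12.6% of the TaxR list, while 53 that were higher in DTXR were lower in TaxR. Lower calls numbered 531 (4.19%) in DTXR and 646 (5.1%) in TaxR, with 89 shared, 16.8% and 13.8% of the lists, and 34 opposite. With CabR in place of TaxR, added after seeing the data, 250 (1.97%) were higher and 705 (5.57%) lower, and 23 and 81 were shared. Opposite calls in CabR numbered 76 for genes higher in DTXR and 27 for genes lower in it. The shared higher genes included ABCB1, PTGER4, TGFB2, KRT7 and IFI35, and the shared lower ones CYP4F11, SLPI, KRT19, HSPA6 and CDKN1C, chosen after their values were seen. Of these higher genes only ABCB1 passed the rule upward in CabR against C4-2B, with a log2 ratio of 9.54. PTGER4, TGFB2 and KRT7 were at 0.16, 0.71 and 0.06 there, and IFI35 was at -1.02. The named lower genes passed it downward in CabR except SLPI, at -0.21. KRT7 was at 1.62 FPKM in TaxR, against 490 in DTXR. The TaxR library also holds low levels of genes that C4-2B lacks and the DU145 lines express, such as S100A6, listed at 0 in C4-2B but at 8.06 FPKM in TaxR, against 762 in DU145, and the part of this in the shared higher genes was not tested.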

How the data were processed

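RNA was measured in 6 cell lines with 1 library each, grouped from the labels. TRIzol-extracted total RNA went into stranded mRNA libraries, per the labels' protocols. The submitters' processing notes name HISAT, StringTie, Cuffnorm and GRCh38, without versions. Whether counting used strand, which annotation served and how libraries were scaled is not given in the sources used here. Per the file headers the authors deposited FPKM per gene for 60658 identifiers. Such values are model-based estimates of unknown depth, so an exact 0 can be a failed estimate, reads of paralogs and overlapping genes may be divided between them, and no count model was fitted. Symbols came from a gene symbol table (56550 identifiers matched) and from GENCODE release 29 (57047 matched).

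The log2 ratio of (FPKM + 1), DTXR to DU145, was computed over genes at 1 FPKM or more in either library, with a size rule of 1 and no p-value. Alternatives were other pseudocounts, filters, scalings and gene types. The named genes were ABCB1, the 20 highest and 20 lowest protein-coding genes, up to 6 members past the size rule in each direction of each of 45 lists, and genes of runs of 5 or more called neighbours. Other members were named after their values were seen. Some genes named by the rule are left out here. The members and lists were chosen with earlier results of these data known. On simulated data the script was tested for recovery of planted changes. Figures were drawn with matplotlib 3.10.9, and tables computed in Python 3.11.15 (pandas 2.3.3, numpy 2.4.6, scipy 1.17.1).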

Additional observations from a re-analysis of the deposited data

Results flagged for a closer look

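Among the genes named for DTXR, 8 passed the size rule in opposite directions in DTXR against DU145 and in TaxR against C4-2B, each with 1 library per line, and the difference was not tested. DHRS3 had a log2 ratio of 2.86 in DTXR and -2.57 in TaxR, ENO2, the neuronal enolase, 1.67 and -2.55, ANKRD37, a hypoxia target, 1.16 and -2.54, the lipoprotein receptor gene VLDLR 1.11 and -1.71, and IRS1 1.04 and -1.03. The other direction was seen for DKK1 at -1.58 in DTXR and 1.25 in TaxR, IGFBP3 at -1.91 and 1.19, and H2BC4 at -3.58 and 1.07. DKK1 was listed at 0 FPKM in C4-2B, was at 1.39 in TaxR and was at 383 in DU145.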

How the results depend on the processing

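No paired analysis was possible because each line has 1 library. No named gene or window changed direction under the alternatives run. With a pseudocount of 0.1 there were 1304 higher and 1461 lower genes and with 0.5 1142 and 1161, so lower calls outnumbered higher ones there, the reverse of the reported 936 and 890. With a pseudocount of 5 there were 340 higher and 219 lower genes, and with a filter of 5 FPKM 584 and 447. Over protein-coding genes only, 537 were lower. Genes shared with TaxR, higher and lower, numbered 79 and 195 with a pseudocount of 0.1, 53 and 135 with 0.5, 6 and 13 with 5, and 14 and 39 with a filter of 5 FPKM, and the shared lower genes were 43 over protein-coding genes only. Of genes near 0 in DU145 or in DTXR alone, 20 and 8 are protein-coding. The histone median was -0.54 with a pseudocount of 5, and the median of the uptake transporters was -0.61 with a filter of 5 FPKM. Of 225 named genes 140 passed the rule under all 8 alternatives, and 84 of the others missed it with a pseudocount of 5. Of 45 list medians 6 changed sign in at least 1 alternative, with reported medians from 0.005 to 0.24, as did 6 of 23 chromosome medians. The rescalings moved all log2 ratios by 0.06 or less. Sequencing depth is unknown, so levels near 0 carry no detection limit.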
